A study of Mus musculus with 8 samples.

Results

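The aminoacyl-tRNA synthetases are the enzymes that join each amino acid to its transfer RNA, and their 36 genes named here were followed in untreated and interferon-beta (IFN-beta) treated mouse embryonic fibroblasts. These genes were chosen by symbol from a list of the family, with no measured value in the rule, and all 36 were found among the 24015 gene symbols of the count tables. Of these, 20 encode enzymes of the cytosol and 16 encode enzymes of the mitochondria. All 36 passed the expression filter, which 12128 of all symbols passed. RNA was sequenced from untreated cells (2 libraries) and from cells after 6 h with IFN-beta, a recombinant mouse protein used at 100 units/mL (2 libraries). The fibroblasts of all 4 were wild type, of C57bl/6 background, made from E12.5 embryos and used between passages 15 and 18. The labels give the HA-tagged H3.3 genotype for the HA immunoprecipitations only, and the 4 chromatin samples were not analysed here. The labels number the libraries but do not say whether they came from separate cultures, so a p-value here reflects the variation among the 4 libraries alone, and that variation may be technical.

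Most synthetases recognise 1 amino acid and the transfer RNAs that carry it, and so set the accuracy of translation. The cytosol and the mitochondria mostly use separate genes, with a 2 at the end of the mitochondrial symbol, while Kars (lysine) and Gars (glycine) supply both compartments. Eprs encodes a protein that charges both glutamate and proline, and Farsa and Farsb encode the subunits of the enzyme for phenylalanine. Several cytosolic enzymes sit in a multisynthetase complex that is held together by the scaffold proteins of Aimp1, Aimp2 and Eef1e1. Amino acid shortage is known to raise many cytosolic synthetase genes through the transcription factor Atf4, and the tryptophan enzyme of human cells is known as a target of interferon-gamma.

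The promoters of the synthetases were read for 3 short motifs, because interferon and amino acid shortage act through known DNA elements. RefSeq windows of 300 bases (GRCm38.p6, 250 before to 50 after the start) matched 27 of the 36 genes. Of their 28 windows, 13 had the start at the first base of the annotated gene span, read in the gene's direction, and the others did not. No window was matched for Cars, Hars, Hars2, Lars, Nars, Pars2, Rars, Vars or Wars. The core of the interferon-stimulated response element, GAAA, any 2 bases and GAAA again, on either strand, was found in 1 of the 27 windows (3.7%), that of Qars, against 3.99% of all 27025 genes with a window. It was found in 84 of 436 genes called higher after IFN-beta (19.3%). The core of the gamma-activated site, TTCNNNGAA on either strand, was found in Aars, Kars and Nars2 (11.1%), against 9.55% of all genes. The core of the amino acid response element, TGATGNAA on either strand, was found in 5 of the 27 windows (18.5%), against 4.51% of all genes. Among tested genes with a window, the shares of these 3 motifs were, in the same order, 3.76%, 8.27% and 2.67%. Among genes called higher, the last 2 were at 11.7% and 4.13%. Matches to different motifs were counted separately, also where they overlapped. All 5 members with the amino acid response core encode cytosolic enzymes, and none of the 14 mitochondrial windows held this core. Relative to the start, the match began at 7 in Iars, 3 in Yars, -30 in Gars and -15 in Tars. Matched sites of 6 members and of Ifit1 are shown because they carry the elements that the responses to interferon and to amino acid shortage are known to use. Each is given in the gene's reading direction with the matched letters in capitals.
Gars, amino acid response core (chr6:55037960-55037989, plus strand): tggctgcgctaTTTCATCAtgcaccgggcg
Iars, amino acid response core (chr13:49682126-49682155, plus strand): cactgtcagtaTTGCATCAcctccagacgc
Tars, amino acid response core (chr15:11399655-11399684, minus strand): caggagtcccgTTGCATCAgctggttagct
Yars, amino acid response core (chr4:129189895-129189924, plus strand): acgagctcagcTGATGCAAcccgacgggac
Qars, interferon-stimulated response core (chr9:108507796-108507825, plus strand): tgctaaacacTTTCCCTTTCcacgcccatg
Kars, gamma-activated site core (chr8:112011344-112011373, minus strand): cccgccctctTTCCCGGAAgaggcaggact
Ifit1, an interferon-induced gene, for comparison (chr19:34640794-34640823, plus strand): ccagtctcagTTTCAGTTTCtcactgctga
A match describes letters in a window and is not evidence of binding.

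The libraries held from 18528685 to 24817342 gene counts. The 2 libraries of a group were not copies of each other, with a chi-square per gene of 32.3 between the untreated and 11.5 between the IFN-beta libraries. Levels are given as CPM, gene counts scaled to a common library total, after TMM scaling, a normalization that assumes most genes do not change. The treatment was visible in all 12 genes of an interferon response list, which rose, the least of them Irf1 with a log2 fold change of 2.98. All 8 fibroblast markers passed the expression filter, at a summed 4694 and 5218 CPM untreated and 6400 and 6048 CPM after IFN-beta. Of these, 7 had log2 fold changes above 0, and Pdgfra was lower at -0.62 (edgeR adjusted p = 0.199). Pdgfra stood at 68.1 and 39.4 CPM untreated and at 38.9 and 30.9 CPM treated. Summed markers of the other cell types were low, at 16.5 to 23.5 CPM for macrophages and leukocytes, 21.1 to 29.9 for neural cells, 0.468 to 1.02 for epithelium and 1.09 to 3.31 for endothelium, with Tie1, Gfap and Snap25 at 0 in all 4 libraries. Among these other types, the endothelial sum alone had the treated pair (3.31 and 2.01 CPM) above the untreated pair (1.09 and 1.14 CPM), and Cdh5 (2, 6, 24 and 19 counts) was its 1 called gene, though not without IFN-beta replicate 1. In bulk libraries such as these, fewer cells of a type and less RNA per cell cannot be told apart, and the part of other cells in the results below was not tested.

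Apart from Lars2, no synthetase gene passed the test. Of the 36 genes 1 was called higher and 0 lower by edgeR's quasi-likelihood test, at a Benjamini-Hochberg adjusted p below 0.05 over all tested genes. Of all tested genes 4.73% were called higher and 0.495% lower, so the count of members was not above this background. At an unadjusted p below 0.05 there were 5 of the 36, beside 18.2% of all tested genes. DESeq2 called 2 higher (Lars2 and Vars) and 0 lower, beside 5.13% and 0.849% of all genes. Without a count filter edgeR called the same 2 higher and 0 lower, beside 5.16% and 2.28%. With total library size as the scaling it called Lars2 higher and Dars lower, beside 3.94% and 2.89%. For each of the 35 genes other than Lars2 the 95% interval of the log2 fold change lay between -1 and 1, within a 2-fold change. For 29 of them it also lay within a 1.5-fold change. Of all 12128 tested genes, 9733 had intervals within a 2-fold and 5535 within a 1.5-fold change. The library left out mattered. Without untreated replicate 2, 5 members were called higher (Gars, Kars, Lars2, Vars and Wars) and 1 lower (Dars), but 15.3% and 14% of all genes were then called in those directions. Without untreated replicate 1, 3 were called higher (Kars, Lars2 and Vars) and 0 lower, beside 6.91% and 1.82% of all genes.

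**Figure D1:**
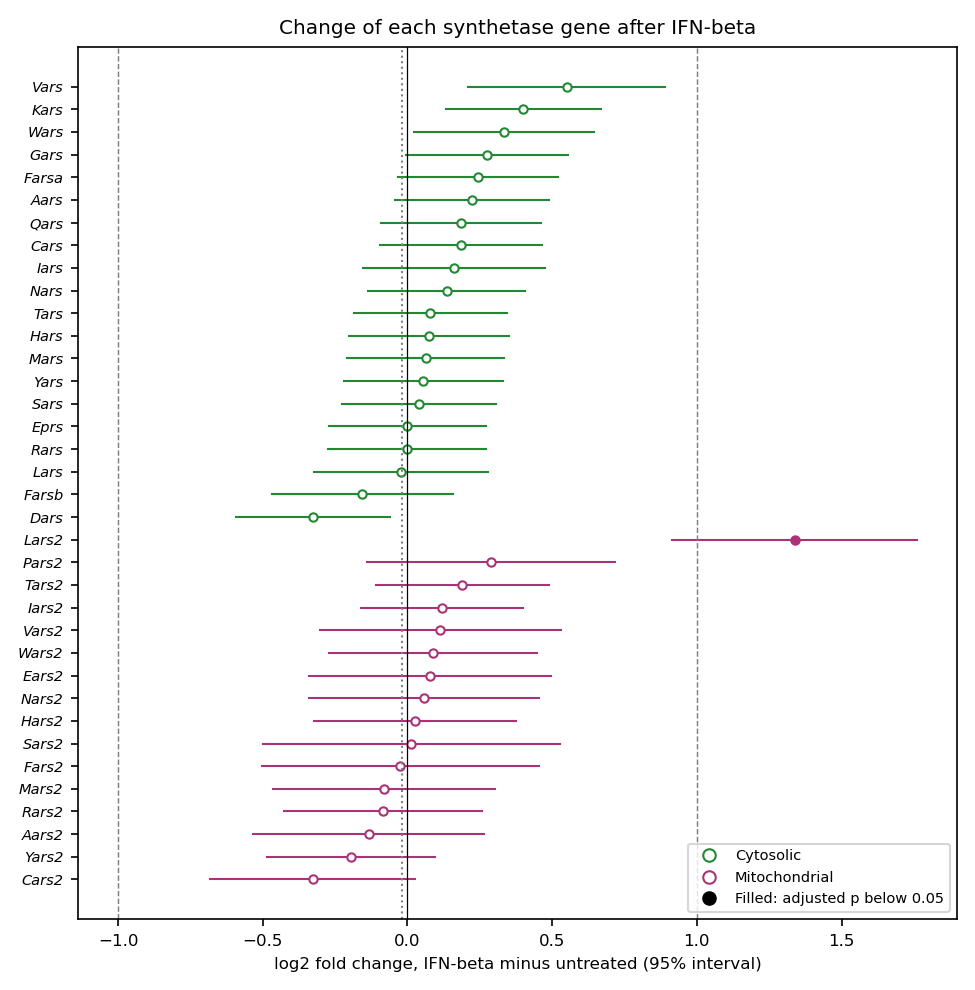
Log2 fold change of the 36 synthetase genes after IFN-beta (x axis) with its 95% interval from the edgeR fit, cytosolic genes in green and mitochondrial genes in purple. Filled points passed the test, dashed lines mark a 2-fold change and the dotted line marks the median of all tested genes (-0.02). Lars2 (1.34) is the 1 filled point. The intervals of the other 35 genes lie between the dashed lines, beside 9733 of all 12128 tested genes.

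Wars, the cytosolic tryptophan enzyme, was higher after IFN-beta by a small margin that did not pass the test. It stood at 41.0 and 47.5 CPM in the untreated libraries (790 and 1254 counts) and at 58.3 and 53.4 CPM in the IFN-beta libraries (1041 and 1060 counts). Both treated libraries were above both untreated ones, and the gap between the groups was narrower than that between the untreated libraries. The log2 fold change was 0.33 ± 0.14 (SE, n = 2 per group, edgeR adjusted p = 0.245). Its 95% interval ran from a fold of 1.01 to 1.56, so a rise of the size of the Irf1 response was outside it. Adjusted p-values over the alternatives ran from 0.0082 to 0.999, and it passed in 1 of 13 of them, the fit without untreated replicate 2 (log2 fold change 0.44). With total library size scaling its value was 0.19 (adjusted p = 0.438). Wars overlaps the span of Wdr25 in the RefSeq annotation, and the strand setting of the counts is not given in the sources used here. Whether reads of Wdr25 were counted for Wars was not tested. Its mitochondrial counterpart Wars2 stood at 18.2 and 16.1 CPM untreated and at 18.0 and 18.4 CPM treated, with overlapping groups and a log2 fold change of 0.09 ± 0.16 (adjusted p = 0.820). Of 7 enzymes that break down tryptophan, among them the interferon-linked Ido1, 6 were too low to test, and the other, Afmid, was at -0.07.

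Vars, which charges valine, had the largest value among the cytosolic genes. It stood at 104.7 and 140.4 CPM untreated and at 182 and 177 CPM after IFN-beta. The treated libraries lay close together and above both untreated ones, which differed 1.34-fold from each other, more than for any other member. The log2 fold change was 0.55 ± 0.15 (edgeR adjusted p = 0.0769, from 1.4e-07 to 0.288 over the alternatives). It was called without a count filter (adjusted p = 0.0035) and by DESeq2 (0.0239), and it passed in 5 of 13 alternatives in all. Leaving out untreated replicate 1 gave a value of 0.38, and leaving out untreated replicate 2 gave 0.78. The mitochondrial valine gene Vars2 stood at 8.73 and 10.7 CPM untreated and 10.6 and 10.4 CPM treated (log2 fold change 0.11 ± 0.19, adjusted p = 0.797), with overlapping groups.

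Kars, the lysine enzyme of both compartments and a member of the complex, stood at 217 and 225 CPM untreated and at 301 and 284 CPM treated. The groups did not overlap. The log2 fold change was 0.40 ± 0.12 (edgeR adjusted p = 0.104), a fold of 1.32 with an interval from 1.10 to 1.59. Without untreated replicate 1 (adjusted p = 0.0352) and without untreated replicate 2 (0.0063) it was called. It was not called without IFN-beta replicate 1 (0.882) or replicate 2 (0.398), nor in any of the 9 alternatives that kept all libraries, and its value was 0.26 with total library size scaling.

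Dars, the aspartate enzyme of the same complex, had the lowest value of the cytosolic genes. It stood at 251 and 244 CPM untreated and at 193 and 202 CPM treated, so both treated libraries were below both untreated ones. The log2 fold change was -0.33 ± 0.12 (edgeR adjusted p = 0.183). It was called lower with total library size scaling (log2 fold change -0.47, adjusted p = 0.0452) and without untreated replicate 2 (adjusted p = 0.0268), and in no other of 13 alternatives, with an adjusted p of up to 0.999.

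The other complex members did not share a direction. Of the 8 complex enzymes 4 had log2 fold changes above 0 and 4 below, with a median of 0.03. The signs of Eprs, Lars, Mars and Rars were not the same in every alternative. Eprs, the glutamate and proline enzyme, stood at 413 and 389.9 CPM untreated and 405 and 398 CPM treated, which left its log2 fold change at -0.0008. Lars, the cytosolic leucine enzyme, stood at 303 and 249 CPM untreated and 268 and 276 CPM treated, inside the spread of the untreated pair (log2 fold change -0.02 ± 0.13, adjusted p = 0.953). Qars (glutamine), whose window matched the interferon core, had 67.3 and 71.0 CPM untreated and 78.7 and 78.6 CPM treated (0.19 ± 0.12, edgeR adjusted p = 0.471). Iars (isoleucine, 0.16), Mars (methionine, 0.06) and Rars (arginine, -0.0018) made up the rest, and Mars overlaps the span of the stress gene Ddit3. Summed over the 8 genes, the level was 1833 and 1800.0 CPM untreated and 1865 and 1866 CPM treated.

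Outside the complex, values of 11 of the 12 cytosolic genes were above 0, beside 5743 of all 12128 tested genes. The 12 had a median of 0.16 and no call, though Hars, Nars, Sars, Tars and Yars turned below 0 with total library size scaling. Besides Wars and Vars the 11 were Gars (glycine, 0.27), Farsa (phenylalanine, 0.24), Aars (alanine, 0.22), Cars (cysteine, 0.18), Nars (asparagine, 0.14), Tars (threonine, 0.08), Hars (histidine, 0.08), Yars (tyrosine, 0.06) and Sars (serine, 0.04), with Farsb, the partner subunit of Farsa, at -0.16. Aars stood at 237 and 224 CPM untreated and 269.0 and 269.0 CPM treated, Gars at 208 and 236 and then 264 and 273 CPM, and Farsa at 68.9 and 71.7 and then 82.7 and 83.8 CPM. In these 3 genes the groups did not overlap, and their adjusted p-values were 0.365, 0.284 and 0.334. Farsb stood at 106.9 and 86.5 CPM untreated and 86.2 and 87.3 CPM treated, so its value rested on untreated replicate 1. The 5 genes with an amino acid response core (Aars, Gars, Iars, Tars and Yars) had values from 0.06 to 0.27 and no call, and Tars and Yars turned below 0 with total library size scaling.

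Small positive values thus prevailed among the cytosolic genes under TMM scaling, but not with total library size. Their median log2 fold change was 0.11, beside -0.02 for all tested genes, and 12 of 20 had both treated libraries above both untreated ones while 1 had them below. Over all tested genes those shares were 23.9% and 26.8%. The summed cytosolic level was 3676 and 3689 CPM untreated and 3969 and 3952 CPM treated, 1.08 times as high. With total library size the median of all tested genes moved to -0.16 and that of the cytosolic genes to -0.04, 5 of the 20 lay above and 9 below, beside 11.7% and 45.9% of all genes, and the log2 ratio of the summed level was -0.04. The ribosomal RNA precursor Rn45s, Lars2 and the microRNA gene Mir6236 together took 5.943% and 7.516% of gene counts untreated and 14.47% and 13.02% treated. These counts enter the total library size, so a larger share of them leaves a smaller share for all other genes. How much of the shift between the scalings this makes was not tested. The distance of the cytosolic median from the median of all genes was 0.13 under both scalings. By construction a scaling leaves this distance about the same. With a library left out it ran from 0.11 to 0.18.

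**Figure D2:**
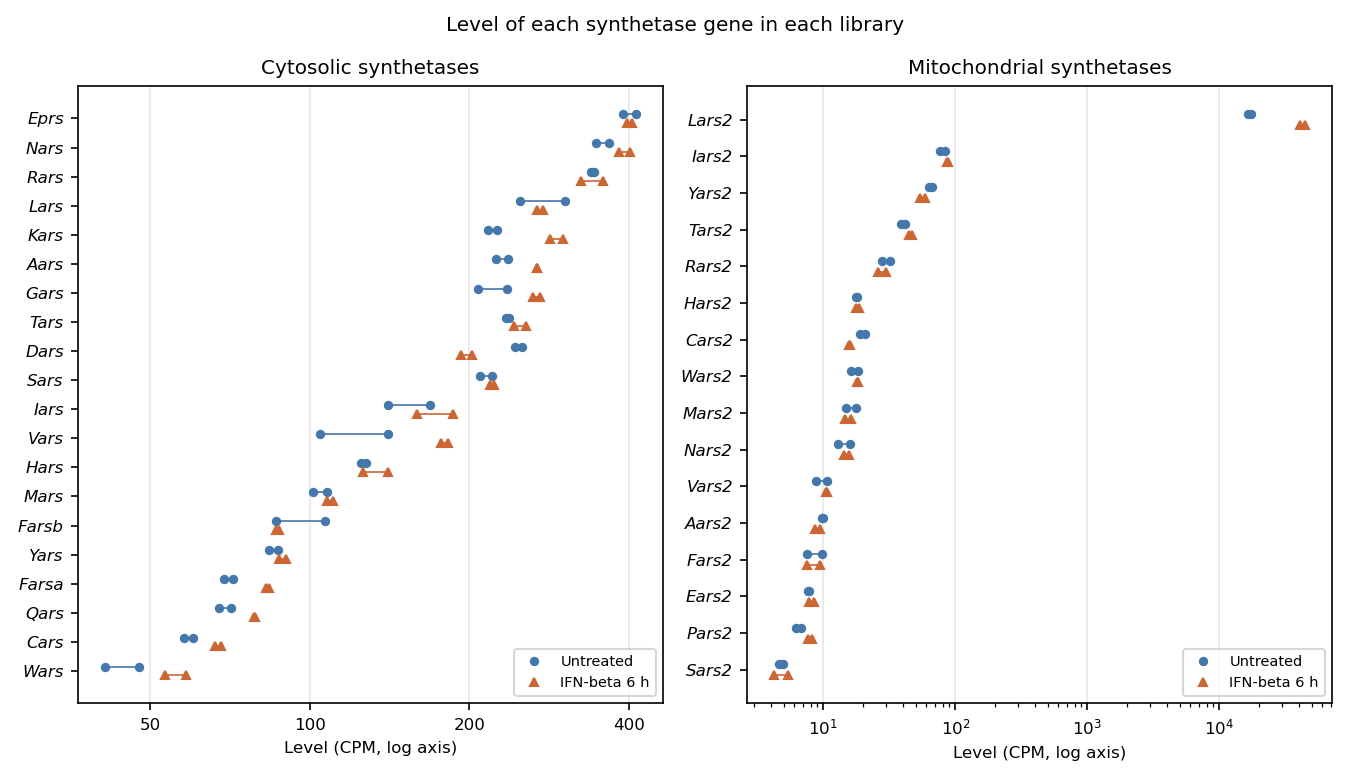
Level of each synthetase gene in each library, in CPM on a log axis, cytosolic genes on the left and mitochondrial genes on the right. Circles are untreated and triangles IFN-beta libraries, and a line joins the 2 libraries of a group. The treated pair lies above the untreated pair in 16 genes and below it in 4, beside 23.9% and 26.8% of all tested genes. With total library size the cytosolic genes, here 12 above and 1 below, became 5 above and 9 below. Vars has a wide untreated pair (104.7 and 140.4 CPM), and Lars2 lies far to the right of the other mitochondrial genes. Levels are not per length, so the order of the genes is not an order of abundance.

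The mitochondrial enzymes, which charge the transfer RNAs used for the few proteins made inside the organelle, gave 0 calls once Lars2 was set aside. The 15 genes had 84 to 2023 counts per library, and their log2 fold changes ran from -0.33 to 0.29 with a median of 0.03. Both treated libraries were above both untreated ones in 3 of them and below in 3, beside 23.9% and 26.8% of all tested genes. The summed level of the 15 was 356 and 339 CPM untreated and 347 and 351 CPM treated.

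Cars2, the mitochondrial cysteine enzyme, was at the low end. It stood at 20.8 and 19.0 CPM untreated and at 16.0 and 15.7 CPM treated, and the groups did not overlap. Its log2 fold change was -0.33 ± 0.16 (edgeR adjusted p = 0.310). The cytosolic cysteine gene Cars stood at 58.0 and 60.1 CPM untreated and 66.3 and 68.0 CPM treated (0.18 ± 0.13, adjusted p = 0.476), on the other side of 0. The difference between the pair was not tested.

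Pars2, the mitochondrial proline enzyme, was at the high end. It stood at 6.23 and 6.75 CPM untreated and at 8.18 and 7.71 CPM treated (120 and 178, then 146 and 153 counts). The groups did not overlap in CPM, and the log2 fold change was 0.29 ± 0.19 (edgeR adjusted p = 0.467). Tars2 (threonine, 0.19), Iars2 (isoleucine, 0.12), Ears2 (glutamate, 0.08), Nars2 (asparagine, 0.06), Hars2 (histidine, 0.03) and Sars2 (serine, 0.01) had values above 0, as did Vars2 and Wars2. Fars2 (phenylalanine, -0.02), Mars2 (methionine, -0.08), Rars2 (arginine, -0.09), Aars2 (alanine, -0.13) and Yars2 (tyrosine, -0.19) had values below 0. Hars and Hars2 overlap each other in the RefSeq annotation, as do Iars2 and Rab3gap2, Rars2 and Orc3, Aars and Ddx19b, and Farsb and Sgpp2. These are overlaps of whole gene spans, introns included, in another assembly than the mm9 build of the counts. Records marked ambiguous (0.47% to 0.53% of all) were left out. Whether reads of a neighbour were counted for a member was not tested.

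Lars2, annotated as the mitochondrial leucine enzyme, was the 1 member called, and its counts, like those of Rn45s and Mir6236, were higher after IFN-beta. It held 317328 and 455171 counts untreated and 800025 and 803584 counts after IFN-beta. These were 16485 and 17250 CPM untreated and 44817 and 40469 CPM treated, with both treated libraries far above both untreated ones. The log2 fold change was 1.34 ± 0.19 (edgeR adjusted p = 0.0016, at most 0.0106 over 12 alternatives, in all of which it was called). Lars2 took 80.3% and 81.1% of the counts of all 36 members untreated and 91.2% and 90.4% treated, while no other mitochondrial member exceeded 2023 counts in any library.

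Rn45s, the ribosomal RNA precursor, took 4.20% and 5.65% of gene counts untreated and 10.2% and 9.06% treated. Its log2 fold change was 1.11 ± 0.23 (edgeR adjusted p = 0.0189, but 0.208 without IFN-beta replicate 1). The share of Lars2 was 1.71% and 1.83% of gene counts untreated and 4.23% and 3.88% treated. Mir6236 is a microRNA gene that was grouped here with Rn45s and Lars2 as ribosomal RNA features. Its share rose from 0.0329% and 0.0334% to 0.0712% and 0.0850% (log2 fold change 1.38 ± 0.14, edgeR adjusted p = 9.9e-05). All 3 shares were higher in both treated libraries than in either untreated one. For every 100 Rn45s counts there were 40.8 and 32.5 Lars2 counts untreated and 41.6 and 42.8 treated, so untreated replicate 1 had nearly the ratio of the treated libraries and untreated replicate 2 a lower one. Of all records in the tables, those not aligned uniquely were 33.0% and 29.8% untreated and 34.9% and 37.2% treated. Whether the Lars2 or Mir6236 counts come from ribosomal RNA was not tested, since only 1 count per gene is given, not where its reads lie.
The mature sequence of Mir6236 is shown because its share, like that of Lars2, was higher in both treated libraries. These counts do not tell the mature microRNA from other RNA assigned to that gene. The seed (bases 2 to 8) is in capitals, and the sequence is from RefSeq (chr9:110281353-110281371, plus strand, GRCm38.p6).
mmu-miR-6236: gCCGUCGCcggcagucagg
Without Rn45s, Lars2 and Mir6236 in the tables, 0 of the 35 other synthetase genes was called, and the value of Wars was 0.34 (adjusted p = 0.227).

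**Figure D3:**
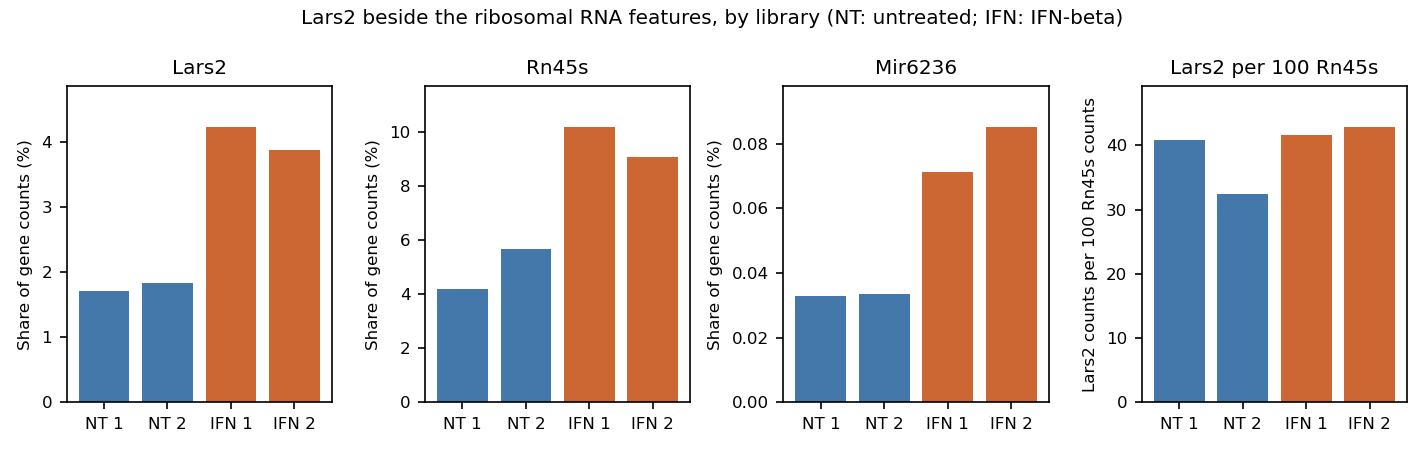
Share of all gene counts taken by Lars2, Rn45s and Mir6236 in each library (percent), and Lars2 counts per 100 Rn45s counts, with untreated libraries (NT) in blue and IFN-beta libraries (IFN) in orange. The 3 shares are higher in both treated libraries, Lars2 from 1.71% and 1.83% to 4.23% and 3.88%. The ratio in the last panel runs from 32.5 to 42.8, with both treated libraries above both untreated ones.

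The genes that work with the synthetases gave 0 calls in either direction by edgeR or limma-voom, in each of 5 lists. Among the 3 scaffold genes of the complex, Aimp1 (128 ± 16.8 to 104 ± 10.9 CPM, SD, n = 2, log2 fold change -0.30) and Eef1e1 (111 ± 6.51 to 93.9 ± 2.18 CPM, -0.24) had both treated libraries below both untreated ones, while Aimp2 was at 0.08. Among 13 relatives and accessories of charging, 7 had both treated libraries below both untreated ones and 1 above, with a median of -0.16. The same counts were 10 below and 5 above of 31 transfer RNA maturation genes, 2 below and 4 above of 10 elongation factor genes, and 2 below and 11 above of 27 amino acid stress genes. Over all tested genes the shares were 26.8% below and 23.9% above. Among the 13 relatives and accessories the smallest p-values were those of Tarsl2, a further threonine enzyme gene (-0.50 ± 0.19, edgeR adjusted p = 0.191), and Prorsd1 (-0.58 ± 0.22, edgeR adjusted p = 0.205).

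Transfer RNA maturation, measured by 31 genes, had a median of 0.01. Rpp30, a subunit gene of ribonuclease P, which trims the front end of transfer RNA precursors, went from 79.6 ± 11.9 to 54.9 ± 1.83 CPM (-0.53 ± 0.14, edgeR adjusted p = 0.069) and was the 1 gene of these lists that DESeq2 called. The 10 elongation factor genes, whose products bring charged transfer RNA to the ribosome or move it along, had a median of 0.09. The 27 amino acid stress genes, many of them targets of Atf4, had a median of 0.08. Atf3, a stress transcription factor (0.72 ± 0.20, edgeR adjusted p = 0.0865), and Slc3a2, part of an amino acid transporter (0.40 ± 0.14, edgeR adjusted p = 0.167), had the smallest p-values there. Unadjusted p-values below 0.05 numbered 0 of the scaffold genes, 3 of the relatives, 5 of the maturation genes, 0 of the elongation factors and 2 of the stress genes, beside 18.2% of all tested genes. Without untreated replicate 2, edgeR called 0 scaffold genes higher and 1 lower, 0 relatives higher and 3 lower, 2 maturation genes higher and 6 lower, 1 elongation factor higher and 1 lower, and 6 stress genes higher and 1 lower, beside the 15.3% and 14% of all genes given above. Without untreated replicate 1, it called 2 stress genes higher (Atf3 and Chac1) and no other gene of the lists, beside 6.91% of all genes called higher and 1.82% lower. Without either IFN-beta library it called 0 genes of the 5 lists.

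**Figure D4:**
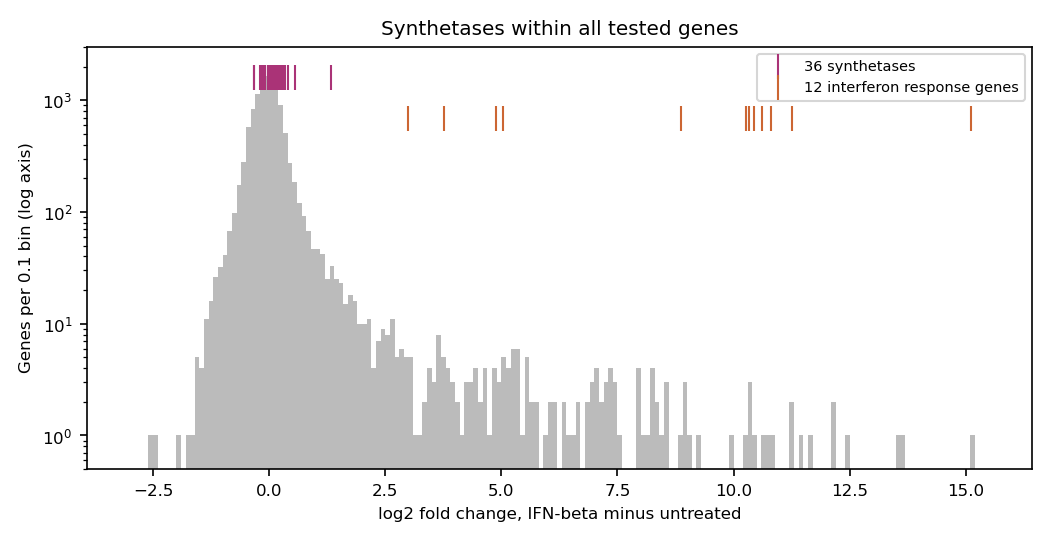
Histogram of the log2 fold changes of all 12128 tested genes (x axis, bins of 0.1, log count axis), with marks for the 36 synthetases and for 12 interferon response genes. The synthetases lie between -0.33 and 0.55 except Lars2 (1.34), and the interferon response genes begin at 2.98. Values of genes with 0 or few untreated counts depend on the prior count of the fit and are no bound.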

How the data were processed

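The rule for the members uses gene symbols alone, but the family and the lists were chosen with earlier results of these data known. The authors deposited 1 table of read counts per gene symbol for each RNA-seq library, not normalized. The submitters' processing notes list HTSeq 0.7.2, TopHat2 2.0.13 and the mm9 build. The annotation and strand setting are not given in the sources used here. Summary lines that name no gene (57.3% to 61.3% of records) were left out.

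Treated and untreated libraries were compared with the quasi-likelihood F test of edgeR 4.0.16 (R 4.3.3), with TMM scaling and no covariate, after filterByExpr (minimum count 10, minimum total count 15). P-values were adjusted over all tested genes by the Benjamini-Hochberg method. CPM uses TMM-scaled library sizes. The standard error is the log2 fold change divided by the square root of F, and 95% intervals use the t quantile of the fit. An exact permutation test of 2 libraries against 2 cannot go below p = 0.333 and was not used. Wilson 95% intervals of the shares were at most 0.248 percentage points wide and cover counting error only. The procedure was tested on simulated data, and the share of small changes that it recovered is not reported here.

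Named in full were Wars, Lars2, called members, the 3 smallest p-values per compartment, and their partners. The pathway lists held no called gene, and the genes named from them, like the members singled out by motif or overlap, were chosen after their values were seen. Alternatives were 3 other scalings, 2 other filters, DESeq2 1.42.0, limma-voom (limma 3.58.1), a replicate block, a fit without Rn45s, Lars2 and Mir6236, and each library left out. Promoter and microRNA sequences are from RefSeq, matched by symbol or, for Mars, by synonym. The matched sites of Aars are not reported here. RefSeq also gave the overlaps of gene spans, for all 36 members.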

Additional observations from a re-analysis of the deposited data

How the results depend on the processing

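Lars2 was called under all 12 alternatives that kept it, and its direction held in each. The count of members called higher was 2 without a count filter, by DESeq2 and with the replicate block, 0 without Rn45s, Lars2 and Mir6236, and 1 to 5 with a library left out. The count lower was 1 with total library size scaling and 0 to 1 with a library left out. Wars ran from 0.26 to 0.44 with a library left out and was 0.19 with total library size. With 1 library left in a group, its spread is taken from the other group, so those calls are uncertain. The cytosolic median was -0.036 with total library size, 0.035 with upper quartile scaling and 0.093 to 0.161 with a library left out, and the mitochondrial median was -0.10 and -0.031 under those scalings.

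Under total library size, values turned below 0 for Ears2 (-0.066), Hars (-0.069), Hars2 (-0.12), Iars2 (-0.024), Mars (-0.081), Nars (-0.0085), Nars2 (-0.085), Sars (-0.10), Sars2 (-0.13), Tars (-0.064), Vars2 (-0.032), Wars2 (-0.055) and Yars (-0.089). Under upper quartile scaling they did for Hars2 (-0.047), Mars (-0.0084), Nars2 (-0.015), Sars (-0.034), Sars2 (-0.059) and Yars (-0.017). By construction, a scaling moves all genes by about the same amount. Total library size includes the counts of Rn45s, Lars2 and Mir6236, whose summed share was higher in both treated libraries, as given above. Eprs and Rars turned above 0 with DESeq2-type size factors in edgeR and by DESeq2 (0.0072 and 0.0065 in each), without a count filter (0.0025 and 0.0012) and without Rn45s, Lars2 and Mir6236 (0.0094 and 0.0089). With a library left out the sign was not fixed for Eprs (-0.042 to 0.066), Fars2 (-0.21 to 0.19), Farsb (-0.30 to 0.028), Hars (-0.0021 to 0.15), Hars2 (-0.019 to 0.074), Lars (-0.15 to 0.15), Mars2 (-0.17 to 0.050), Nars2 (-0.089 to 0.24), Rars (-0.070 to 0.069), Rars2 (-0.18 to 0.040), Sars (-0.00099 to 0.10) and Sars2 (-0.17 to 0.19). None of these was called in any setting run, and apart from the scalings the cause of the sign changes was not tested.

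Whether libraries of the same replicate number were paired is not known here. Same-numbered deviations correlated at -0.03 over tested genes, but with 1 difference per group this cannot decide the question. With the replicate block, Vars was called (log2 fold change 0.57, adjusted p = 0.0486), Wars was not (0.34, adjusted p = 0.356), and no other member changed its call. Over all genes, the block gave 692 higher and 155 lower, against 574 and 60. Other counts over 1.5 times apart were 863 higher and 381 lower without a count filter, 350 lower with total library size, 128 lower with upper quartile scaling, 103 lower by DESeq2, 227 lower without untreated replicate 1, 1885 higher and 1728 lower without untreated replicate 2, and 24 lower without IFN-beta replicate 1. Depth limits the genes with few counts, such as Sars2 with 84 to 121.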
